A study of Mus musculus with 59 samples.

Results

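The genes described here build, fuse, divide and maintain mitochondria in mouse brown adipose tissue (BAT). They were fixed by name and comprise the fusion genes Mfn1, Mfn2 and Opa1, the fission genes Dnm1l and Fis1, the protease gene Oma1, the mitochondrial genome genes Tfam, Polg and Twnk, and the nuclear regulator Nrf1. All 10 were present among the 55341 genes of each of the 3 count tables, and all 10 passed the filter on low counts in every table. Whole-tissue RNA-seq was made from 59 male C57BL/6J mice aged 8 to 12 weeks. One experiment followed thyroid hormone (TH) in hypothyroid mice, a second compared cold with thermoneutrality, and the remaining experiment compared a high-fat diet (HFD) with chow.

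In the TH experiment all mice received propylthiouracil (PTU), a drug that blocks hormone synthesis by the thyroid. Wild-type (WT) mice were taken under PTU alone (4 mice) or 3, 6, 12 and 24 h after TH (4 mice each), TH being a single intraperitoneal injection of the hormones T3 and T4 according to the methods of the study. Mice labelled BATKO were taken under PTU (5 mice) or 24 h after TH (5 mice). In the temperature experiment, control (CTRL) mice were held at 4 °C (3 mice) or 30 °C (4 mice) and BATKO mice at 4 °C (4 mice) or 30 °C (5 mice), for 24 h by the name of the table. In the diet experiment, CTRL mice received HFD (4 mice) or chow (4 mice) and BATKO mice HFD (3 mice) or chow (2 mice), for 3.5 d by the name of the table. The labels and the methods do not describe the gene or allele changed in BATKO mice, so the name is used here as a label. The comparison group of the TH experiment was labelled wild type, whereas that of the other experiments was labelled CTRL.

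Brown adipocytes burn fuel in abundant mitochondria, whose shape and DNA are set by nuclear genes. The outer membranes of neighbouring mitochondria are joined by the mitofusins MFN1 and MFN2, and the inner membranes by OPA1, which the stress-activated protease OMA1 can cut. Division depends on DRP1, the dynamin-like GTPase encoded by Dnm1l, and FIS1 sits in the outer membrane as one of the proteins linked to fission. Mitochondrial DNA (mtDNA) is packaged and its transcription started with the help of TFAM, unwound by the helicase TWINKLE (Twnk) and copied by the catalytic subunit of DNA polymerase gamma (Polg). Nuclear respiratory factor 1 (Nrf1) activates many nuclear genes for mitochondrial proteins.

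A sequence known to be bound by GABP and other ETS factors, CCGGAAGT on either strand, stood in a promoter of 5 of the 10 members, namely Mfn1, Fis1, Tfam, Polg and Twnk. Promoters were RefSeq windows of 300 bases on GRCm38.p6, reaching from 250 bases before to 50 bases after each annotated start, and there were 16 such windows for the 10 members. The same 8 letters were found in 3.89% of 32851 promoters, and in a promoter of 9.45% of 9248 genes with enough counts to be tested. Those of Mfn1, Tfam and Twnk are shown, with the motif in capitals, as the 3 of these genes that passed the test at 12 h after TH in WT mice.

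Mfn1 (chr3:32529232-32529531, plus strand): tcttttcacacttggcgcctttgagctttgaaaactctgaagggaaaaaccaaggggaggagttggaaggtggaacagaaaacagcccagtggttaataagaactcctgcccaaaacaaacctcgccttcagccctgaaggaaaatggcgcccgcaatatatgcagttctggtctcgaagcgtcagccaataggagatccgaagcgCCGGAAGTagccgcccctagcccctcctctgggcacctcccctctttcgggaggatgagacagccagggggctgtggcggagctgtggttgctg
Tfam (chr10:71237995-71238294, minus strand): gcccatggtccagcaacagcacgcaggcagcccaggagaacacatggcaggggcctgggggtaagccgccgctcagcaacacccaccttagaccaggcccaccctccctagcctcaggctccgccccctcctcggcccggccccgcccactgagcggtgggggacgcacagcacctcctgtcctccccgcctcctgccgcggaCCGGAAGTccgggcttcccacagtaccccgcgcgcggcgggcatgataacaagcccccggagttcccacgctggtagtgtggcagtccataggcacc
Twnk (chr19:45006308-45006607, plus strand, at the downstream of its RefSeq starts): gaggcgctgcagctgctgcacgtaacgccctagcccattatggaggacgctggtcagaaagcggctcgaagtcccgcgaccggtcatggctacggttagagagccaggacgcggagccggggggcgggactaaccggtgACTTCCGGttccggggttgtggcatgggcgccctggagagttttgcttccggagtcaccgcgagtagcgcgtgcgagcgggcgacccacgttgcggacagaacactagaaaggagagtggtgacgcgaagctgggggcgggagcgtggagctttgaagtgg

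Counted from the annotated start, the motif began at position -44 in the Mfn1 window, -47 in the Tfam window and -111 in the Twnk window, where it lies on the opposite strand. The same letters on chromosome 19, from 45006447 to 45006454, also lie in the promoter window of Mrpl43, a mitochondrial ribosomal protein gene that runs away from Twnk on the opposite strand. An NRF1 motif, GCGCATGC, was found in a promoter of Opa1 and of no other member, against 6.01% of the tested genes. The thyroid hormone response element of the DR4 type, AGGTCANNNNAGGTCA, was in no member window and in 0% of the tested genes, and its single repeat unit AGGTCA was in a Twnk window, against 14.7% of the tested genes. The ERR motif TCAAGGTCA, which contains that unit (0.335% of the tested genes), the cyclic AMP response element TGACGTCA (3.601%) and the YY1 motif AAGATGGCG (3.75%) were in no member window. The GC box GGGCGGGG was in windows of Fis1, Oma1, Tfam and Nrf1, against 37.6% of the tested genes. These 8 searches, each on both strands, describe letters in short windows and say nothing of binding.

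The libraries held between 7612059 and 18073627 counts, of which between 39.2% and 55.7% came from the 37 genes of the mitochondrial genome. The sum of 9 brown adipocyte markers lay between 5661 and 8171 CPM (counts scaled to a library of 1000000) in WT mice under PTU and between 1584 and 2592 CPM in BATKO mice under PTU, so that these sets of libraries stood apart. In no library was this sum below 788 CPM. Skeletal muscle markers also varied: their sum exceeded 2000 CPM in BATKO mice 13 and 17 and CTRL mice 20 and 21 at 30 °C, in WT mouse B12 at 6 h, and in CTRL mice 3 and 4 on chow. Values without these mice are given where a call of a member or of a named partner was lost. In such bulk tissue, fewer cells of a type and less RNA per cell cannot be told apart. Each mouse is a separate sample, and p-values refer to the spread between mice.

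Per kilobase of exon, Mfn2 was the most abundant of the members and Nrf1 the least. In WT mice under PTU the level was 24.7 ± 1.93 CPM per kb for Mfn2 (SD, n = 4, as for the following genes), 18.2 ± 2.36 for Dnm1l and 14.1 ± 0.563 for Opa1. Tfam followed with 7.69 ± 0.885 CPM per kb and Fis1 with 7.37 ± 0.518, and the mice of these neighbours in the order overlapped. Oma1 had 4.23 ± 0.528 CPM per kb and Mfn1 had 3.33 ± 0.156. Twnk had 1.23 ± 0.0343 CPM per kb, Polg 0.900 ± 0.140 and Nrf1 0.280 ± 0.0778. Apart from Tfam and Fis1, no pair of neighbours in this order overlapped among these 4 mice.

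The counts behind these values differed between members. Over all 59 mice the counts ran from 1028 to 3086 for Mfn2 and from 589 to 2024 for Opa1, but from 23 to 131 for Nrf1, 29 to 132 for Oma1 and 52 to 216 for Twnk. The coefficient of variation between mice of a group had a median over groups of 6.23% for Mfn1, the lowest of the members, and 17.2% for Twnk, the highest. Twnk shares 507 exonic bases, 12.6% of its exon length, with Mrpl43 on the opposite strand. Since the strand setting of the counting is not given in the sources used here, reads from that stretch cannot be assigned, and the changes of Mrpl43 are given beside those of Twnk. Fanci, which overlaps Polg on the opposite strand, never exceeded 4 counts, and the antisense gene Gm49521 at Dnm1l never exceeded 2.

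TH given to hypothyroid WT mice raised the helicase gene Twnk from 3 h on, the fusion genes Mfn1 and Mfn2 from 6 h on, the polymerase gene Polg at 6 h, Tfam at 12 h, and Opa1 and Nrf1 at 12 and 24 h, while the protease gene Oma1 fell. After 3 h, 1 member was higher and 1 lower, beside 5.1% of all 13003 tested genes called higher and 4.09% called lower. Without PTU mouse B3, neither Twnk nor Oma1 passed at 3 h, and the genes called there went from 1195 to 684. At 6 h, 4 members were higher and 1 lower, beside 12.1% and 10.9% of all genes. At 12 h, 6 members were higher and 1 lower, beside 13.6% and 12.1%. At 24 h, 5 members were higher and none lower, beside 17.2% and 15.5%. A call means an adjusted p under 0.05 in the quasi-likelihood test of edgeR, adjusted by the Benjamini-Hochberg method over all tested genes, and all adjusted p below come from that test. The median log2 fold change of the 10 members was 0.04, 0.31, 0.40 and 0.30 at 3, 6, 12 and 24 h, where the median of all genes was 0.01, -0.00, -0.02 and 0.01. In the test of any change over the 4 times, 8 members passed, all but Dnm1l (adjusted p = 0.529) and Fis1 (adjusted p = 0.656), beside 42.4% of all genes. The 4 comparisons share their PTU mice.

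**Figure D1:**
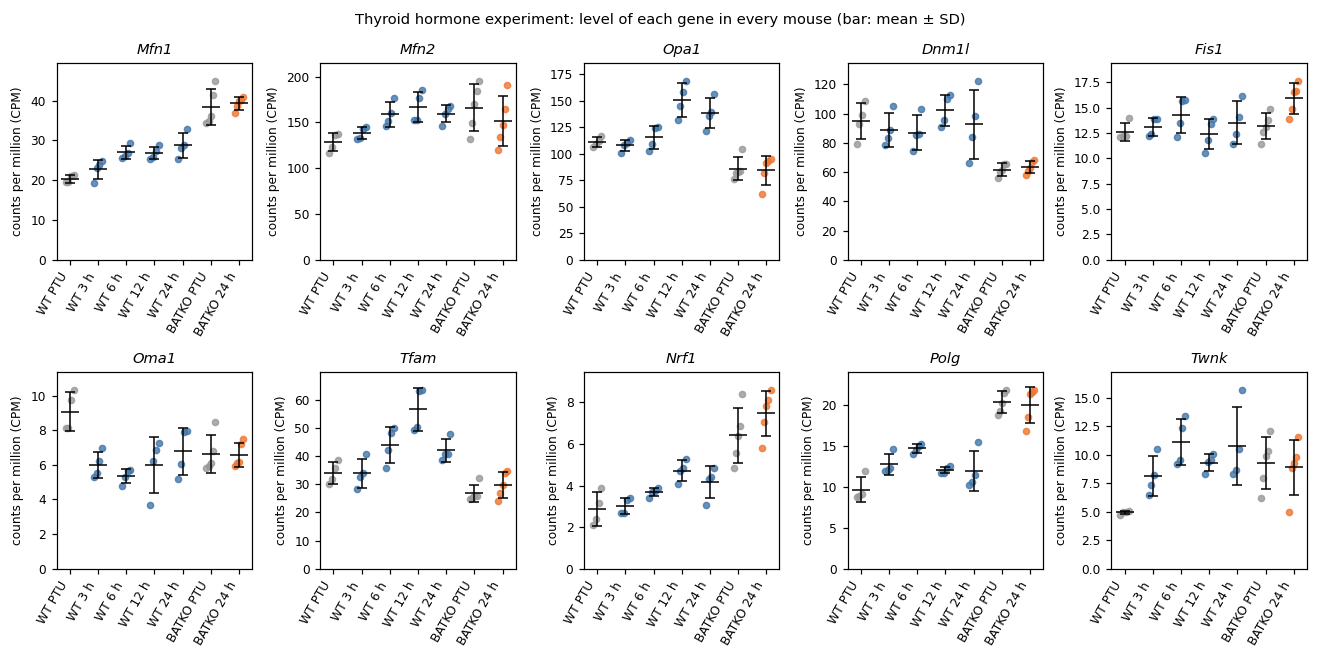
Level of each of the 10 members (CPM, y axes from 0, own scale per gene) in every mouse of the TH experiment, by group; points are mice and bars are means ± SD. Twnk lies at 5.06 CPM or less in the 4 WT mice under PTU and at 6.43 CPM or more in every WT mouse given TH, and its ranges overlap in the BATKO groups.

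Twnk, whose product opens the mtDNA double helix ahead of the polymerase, gave the largest rise among the members at 3, 6, 12 and 24 h. It stood at 5.06, 4.75, 4.94 and 5.01 CPM in the 4 WT mice under PTU and at 8.26, 7.36, 6.43 and 10.5 CPM at 3 h. At 6 h it stood at 13.4, 9.23, 12.4 and 9.58 CPM, at 12 h at 9.51, 8.35, 9.41 and 10.04 CPM, and at 24 h at 8.29, 8.63, 15.7 and 10.5 CPM. The PTU mice were tightly grouped and every treated mouse lay above all of them. The log2 fold change was 0.70 (SE 0.194, adjusted p = 0.025) at 3 h, 1.16 (SE 0.191, adjusted p = 0.000176) at 6 h, 0.92 (SE 0.196, adjusted p = 0.00134) at 12 h and 1.13 (SE 0.192, adjusted p = 0.000118) at 24 h, that is 2.23-fold at 6 h and 2.19-fold at 24 h. The 3 h call was lost without any 1 of the mice B2, B3, B5 or B11, with adjusted p between 0.0521 and 0.105. Mrpl43 had log2 fold changes of 0.05 at 3 h (adjusted p = 0.831), 0.35 at 6 h (adjusted p = 0.053), 0.42 at 12 h (adjusted p = 0.02) and 0.42 at 24 h (adjusted p = 0.015). The part of shared reads in the Twnk values was not tested.

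Mfn1, the mitofusin that tethers outer membranes, rose by a smaller amount and with little spread. It stood at 21.3, 19.5, 19.5 and 21.0 CPM under PTU, at 29.4, 25.6, 26.02 and 26.95 CPM at 6 h, at 25.4, 28.9, 27.4 and 25.8 CPM at 12 h and at 25.4, 27.98, 32.9 and 28.9 CPM at 24 h. From 6 h on, no treated mouse overlapped the PTU mice. Mfn1 had a log2 fold change of 0.39 (SE 0.0947, adjusted p = 0.00497) at 6 h, 0.41 (SE 0.0955, adjusted p = 0.003) at 12 h and 0.50 (SE 0.0948, adjusted p = 0.000366) at 24 h, and these calls held in every alternative run.

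Mfn2, the second mitofusin, stood at 117, 123, 138 and 136 CPM under PTU and at 152, 185, 176 and 153 CPM at 12 h, without overlap. Its log2 fold change was 0.29 (SE 0.0921, adjusted p = 0.0283) at 6 h, 0.38 (SE 0.0922, adjusted p = 0.00373) at 12 h and 0.31 (SE 0.0921, adjusted p = 0.0131) at 24 h. The 6 h call was lost without any 1 of the mice B2, B3, B15 or B17, with adjusted p between 0.0696 and 0.104. It was also lost with no filter on low counts (adjusted p = 0.119), with only the groups compared (adjusted p = 0.0508) and in the fit of all 30 mice (adjusted p = 0.0773). The 24 h call was lost without mouse B2 (adjusted p = 0.0538), with no filter (adjusted p = 0.0645) and in the fit of all 30 mice (adjusted p = 0.0528).

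Opa1, which fuses inner membranes and shapes cristae, stood at 109, 117, 106 and 112 CPM under PTU. It stood at 102.7, 124, 125 and 109 CPM at 6 h, overlapping the PTU mice, and at 158, 144, 168 and 131 CPM at 12 h, above all of them. At 24 h the mice stood at 156, 135, 122 and 139 CPM, again above the PTU mice. Opa1 had a log2 fold change of 0.04 (adjusted p = 0.804) at 6 h, 0.45 (SE 0.0982, adjusted p = 0.0018) at 12 h and 0.31 (SE 0.0981, adjusted p = 0.019) at 24 h. The 24 h call was lost without mouse B24 (adjusted p = 0.0666) and with no filter on low counts (adjusted p = 0.0700). Whether Opa1 differed between 6 and 12 h was not tested.

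The fission genes showed no change past the threshold at any time. Dnm1l, the GTPase that constricts mitochondria, ranged from 79.1 to 108 CPM under PTU and from 66.2 to 122 CPM over the mice at 24 h, so that the groups overlapped. Its log2 fold changes lay between -0.14 and 0.12 over the 4 times, and at 24 h the difference was -0.04 with a 95% interval from -0.35 to 0.28. Fis1 stood at 14.0, 12.2, 12.1 and 12.2 CPM under PTU and at 11.4, 16.2, 14.1 and 12.4 CPM at 24 h, with a difference of 0.10 on the log2 scale and a 95% interval from -0.16 to 0.35.

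Oma1, whose protease cuts OPA1 under stress, was the member that fell. It stood at 8.13, 10.3, 8.11 and 9.76 CPM under PTU, at 5.51, 6.98, 6.19 and 5.31 CPM at 3 h, at 5.67, 4.80, 5.69 and 5.28 CPM at 6 h and at 6.20, 7.25, 6.88 and 3.67 CPM at 12 h. All treated mice lay below the PTU mice at these times. At 24 h the mice stood at 7.91, 7.95, 5.20 and 6.05 CPM, still below the PTU mice but closer to them. Its log2 fold change was -0.62 (SE 0.175, adjusted p = 0.0301) at 3 h, -0.77 (SE 0.177, adjusted p = 0.00347) at 6 h, -0.57 (SE 0.179, adjusted p = 0.0217) at 12 h and -0.43 (SE 0.175, adjusted p = 0.0654) at 24 h. The 6 h call held without each mouse in turn. The 3 h call was lost without any 1 of B3, B5, B7, B9 or B11 (adjusted p between 0.0528 and 0.101) and the 12 h call without B3, B5 or B23 (adjusted p between 0.0547 and 0.0732). The 24 h value passed without B24 (adjusted p = 0.0415) or B26 (adjusted p = 0.0473).

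Tfam, which packages mtDNA into nucleoids, was highest at 12 h. It stood at 38.7, 35.9, 30.0 and 31.8 CPM under PTU, at 48.2, 42.3, 49.8 and 35.7 CPM at 6 h, at 63.0, 49.4, 63.4 and 50.5 CPM at 12 h and at 47.8, 40.8, 40.7 and 38.6 CPM at 24 h. The 12 h mice lay apart from the PTU mice, and those of 6 and 24 h reached into their range. Its log2 fold change was 0.35 (SE 0.131, adjusted p = 0.0569) at 6 h, 0.74 (SE 0.132, adjusted p = 0.000248) at 12 h and 0.30 (SE 0.132, adjusted p = 0.0887) at 24 h. The 6 h value passed the threshold without mouse B2 (adjusted p = 0.0494) or B17 (adjusted p = 0.0263) and in the fit of all 30 mice (adjusted p = 0.0483).

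Polg, the mtDNA polymerase, passed the threshold at 6 h, in all 16 alternatives as well. It stood at 9.12, 8.76, 11.9 and 8.88 CPM under PTU, at 12.4, 14.6, 12.0 and 12.0 CPM at 3 h and at 14.5, 15.0, 14.0 and 15.3 CPM at 6 h. All mice of 3 and 6 h exceeded the PTU mice, of which B4 was the high one. The log2 fold change was 0.37 (SE 0.128, adjusted p = 0.073) at 3 h, 0.58 (SE 0.127, adjusted p = 0.00223) at 6 h, 0.32 (SE 0.130, adjusted p = 0.075) at 12 h and 0.30 (SE 0.129, adjusted p = 0.0807) at 24 h. Without mouse B4, Polg passed the threshold at 3 h (0.49, adjusted p = 0.021), at 12 h (0.44, adjusted p = 0.019) and at 24 h (0.42, adjusted p = 0.0194). It also passed at 3 h in the fit of all 30 mice (adjusted p = 0.0434) and at 24 h without mouse B24 (adjusted p = 0.0423).

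Nrf1, the transcription factor and the least abundant member, stood at 2.38, 2.10, 3.17 and 3.87 CPM under PTU and at 4.83, 4.06, 4.71 and 5.27 CPM at 12 h, without overlap. The 24 h mice, at 3.05, 4.41, 4.83 and 4.33 CPM, overlapped those under PTU. The log2 fold change was 0.72 (SE 0.186, adjusted p = 0.00682) at 12 h and 0.53 (SE 0.185, adjusted p = 0.0333) at 24 h, and the 24 h call was lost without any 1 of B2, B3, B26, B27 or B28 (adjusted p between 0.0661 and 0.117). It was also lost with no filter on low counts (adjusted p = 0.0898) and with only the groups compared (adjusted p = 0.101). The Nrf1 values rest on between 23 and 131 counts per library.

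Brown adipocyte markers moved beside these genes: their sum was 5661 to 8171 CPM in WT mice under PTU, 9141 to 16373 CPM at 3 h, 12664 to 15351 CPM at 6 h, 9429 to 18655 CPM at 12 h and 8582 to 20088 CPM at 24 h. General adipocyte markers summed to 10229 to 11229 CPM under PTU and, below that range, to 6822 to 8244 CPM at 12 h and 5596 to 7474 CPM at 24 h. Skeletal muscle markers summed to between 81.9 and 916 CPM under PTU, between 5.06 and 320 CPM at 3 h and between 396 and 2259 CPM at 6 h. At 12 h they summed to between 5.36 and 403 CPM and at 24 h to between 330 and 1705 CPM. In the test of any change over the times after TH, the brown adipocyte marker Prdm16 did not pass (adjusted p = 0.659). Ucp1 (adjusted p = 0.00085), Cidea, Dio2, Cox7a1, Elovl3, Ppargc1a, Ebf2 and Zic1 passed. The brown adipocyte sum can therefore follow the level of its own genes per cell as well as the share of cells. Which of these moved it, and the part of cell content in the member values, was not tested.

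In BATKO mice no member passed the threshold 24 h after TH, in a fit where 0% of 14178 genes were called by edgeR or by DESeq2 and 673 had an unadjusted p under 0.05. Of the 10 members, 1 was below that unadjusted level, Fis1, with a log2 fold change of 0.27 (SE 0.103, adjusted p = 0.963). Twnk stood at 12.1, 7.98, 10.3, 6.24 and 9.86 CPM in BATKO mice under PTU and at 11.6, 9.27, 9.82, 4.97 and 8.87 CPM after TH, with full overlap. Its difference was -0.06 on the log2 scale with a 95% interval from -0.45 to 0.33, beside -0.06 for Mrpl43 (adjusted p = 0.986). Mfn1 stood at 36.2, 34.5, 45.0, 35.0 and 41.5 CPM under PTU and at 41.0, 40.3, 39.9, 38.6 and 36.9 CPM after TH, with a difference of 0.03 and a 95% interval from -0.14 to 0.21. The members' median log2 fold change was 0.01, beside -0.01 for all genes.

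The 24 h response to TH differed between BATKO and WT mice for Twnk and Mfn1. The interaction term, the BATKO response minus the WT response, was -1.19 on the log2 scale for Twnk (SE 0.294, 95% interval -1.79 to -0.59, adjusted p = 0.00776) and -0.47 for Mfn1 (SE 0.128, 95% interval -0.73 to -0.21, adjusted p = 0.0155). No member was called in the other direction, beside 5.12% of all genes called higher and 7.15% called lower in this term. The call of Twnk held in all alternatives, and that of Mfn1 was lost with no filter on low counts (adjusted p = 0.0854). Mfn2 had -0.45 (SE 0.164, adjusted p = 0.0715) and passed without BATKO mouse 11 under PTU (-0.52, adjusted p = 0.0253) or BATKO mouse 7 after TH (-0.54, adjusted p = 0.0199). Opa1 had -0.34 (adjusted p = 0.161), Oma1 0.41 (adjusted p = 0.234) and Nrf1 -0.31 (adjusted p = 0.441). Mrpl43 had -0.48 (adjusted p = 0.0723). The members' median was -0.31, beside -0.02 for all genes.

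Under PTU alone, 9 members differed between BATKO and WT libraries, 5 higher and 4 lower in BATKO, in a comparison where 36.4% of all genes were called higher and 33.9% lower. Nrf1 was 2.22-fold, Polg 2.09-fold, Mfn1 1.89-fold and Twnk 1.88-fold as high in BATKO as in WT, and Mfn2 was 1.29-fold as high. Dnm1l was at 0.651, Oma1 at 0.732, Opa1 at 0.772 and Tfam at 0.785 of the WT level. The BATKO mice did not overlap the WT mice for Mfn1, Opa1, Dnm1l, Nrf1, Polg and Twnk, and Fis1 did not pass (log2 difference 0.06, adjusted p = 0.633). The share of all genes without such overlap was not counted. The Tfam call was lost without WT mouse B2 (adjusted p = 0.0572). Twnk in BATKO mice under PTU, at 6.24 to 12.1 CPM, lay above all WT mice under PTU, whereas Mrpl43 was lower in BATKO (log2 difference -0.32, adjusted p = 0.0262). Most tested genes differed between these libraries, whose totals under PTU were 12022144 to 14615534 counts in WT and 14681206 to 18073627 counts in BATKO mice, without overlap. Genotype and library set therefore cannot be told apart here. In the interaction term a constant log2 difference between the sets cancels. A response to TH that differed between the sets for a reason other than genotype would not cancel, and it cannot be told apart from genotype.

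**Figure D2:**
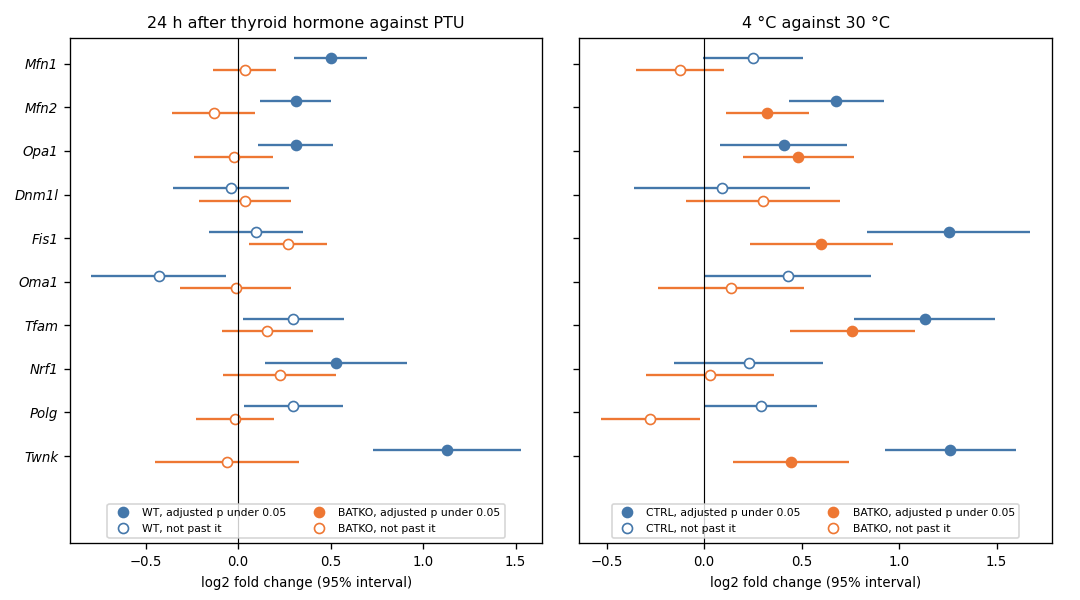
Log2 fold change of each member (x axis) with its 95% interval, for TH after 24 h in WT and BATKO mice and for cold in CTRL and BATKO mice, from edgeR fits. Twnk shows the widest gap between genotypes in both experiments, at 1.13 against -0.06 after TH and 1.26 against 0.44 in the cold.

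Cold raised Twnk, Fis1, Tfam, Mfn2 and Opa1 in CTRL mice and the same 5 genes in BATKO mice. In CTRL mice 5 members were higher and none lower, beside 26.5% and 22.6% of 13267 tested genes, and in BATKO mice 5 were higher and none lower, beside 21.4% and 18.9%. The members' median log2 fold change was 0.42 in CTRL mice, beside -0.01 for all genes, and 0.31 in BATKO mice, beside -0.02.

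In the cold Twnk stood at 24.4, 22.7 and 20.6 CPM in CTRL mice, against 8.62, 10.6, 8.31 and 10.01 CPM at 30 °C. The groups lay far apart, and the log2 fold change was 1.26 (SE 0.160, adjusted p = 8.83e-06), or 2.40-fold. In BATKO mice Twnk stood at 17.7, 13.8, 16.6 and 13.6 CPM at 4 °C and at 10.9, 14.8, 9.66, 10.7 and 10.5 CPM at 30 °C, where mouse 14 reached into the cold range. The BATKO change was 0.44 (SE 0.141, adjusted p = 0.019), and it was lost without BATKO mouse 7 (adjusted p = 0.0752) or 11 (adjusted p = 0.055) of the cold group, and without the mice high in muscle markers (0.40, adjusted p = 0.101). Mrpl43 rose as well, by 1.75 on the log2 scale in CTRL mice (adjusted p = 2.33e-07) and by 1.14 in BATKO mice (adjusted p = 6.78e-06).

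Tfam stood at 55.1, 75.1 and 71.2 CPM in cold CTRL mice and at 30.7, 31.0, 29.9 and 30.9 CPM in those at 30 °C. In BATKO mice it stood at 63.2, 55.5, 55.1 and 38.2 CPM in the cold and at 36.7, 35.1, 31.9, 23.4 and 29.3 CPM at 30 °C. No warm mouse reached a cold mouse of its genotype. Cold raised Tfam by 1.13 on the log2 scale (SE 0.172, adjusted p = 5.19e-05) in CTRL mice and by 0.76 (SE 0.151, adjusted p = 0.000843) in BATKO mice.

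Fis1, the outer-membrane fission protein gene that did not pass after TH, stood at 34.6, 25.2 and 20.4 CPM in cold CTRL mice and at 10.5, 14.1, 11.0 and 9.14 CPM in those at 30 °C. BATKO mice had 20.2, 21.2, 25.0 and 22.4 CPM in the cold and 12.6, 15.5, 12.5, 13.0 and 19.4 CPM at 30 °C. The groups did not overlap in either genotype, with BATKO mouse 17 at 30 °C close to the cold mice. Cold raised Fis1 by 1.26 on the log2 scale (SE 0.198, adjusted p = 7.3e-05) in CTRL mice and by 0.60 (SE 0.173, adjusted p = 0.011) in BATKO mice. The Tfam and Fis1 calls of both genotypes held in every alternative. Whether the Fis1 response to cold differed from that to TH was not tested, since the tables were normalised separately.

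Mfn2 stood at 273, 279 and 236 CPM in cold CTRL mice and at 148, 169, 167 and 172 CPM in those at 30 °C. BATKO mice had 226, 230, 261 and 224 CPM in the cold and 174, 197, 179, 201 and 188 CPM at 30 °C, and neither genotype showed overlap. The log2 fold change was 0.68 (SE 0.115, adjusted p = 0.000138) in CTRL mice and 0.32 (SE 0.101, adjusted p = 0.0173) in BATKO mice. The BATKO call was lost without mouse 11 (0.26, adjusted p = 0.0754), with no filter on low counts (adjusted p = 0.0885) and without the mice high in muscle markers (0.29, adjusted p = 0.12).

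Opa1 stood at 116, 128 and 143 CPM in cold CTRL mice and at 80.2, 94.9, 98.8 and 114.9 CPM in those at 30 °C, where the groups nearly met. In BATKO mice it stood at 135, 133, 125 and 105 CPM in the cold and at 89.6, 78.7, 102, 102.8 and 73.2 CPM at 30 °C. The log2 fold change was 0.41 (SE 0.154, adjusted p = 0.037) in CTRL mice and 0.48 (SE 0.135, adjusted p = 0.00947) in BATKO mice. The CTRL call was lost without any 1 of CTRL mice 2 and 5 of the cold group or 19, 20 and 21 of the warm group, with adjusted p between 0.061 and 0.133. It was also lost with no filter on low counts (adjusted p = 0.0788) and with only the groups compared (adjusted p = 0.0597). Without the mice high in muscle markers Opa1 passed in neither genotype (CTRL 0.40, adjusted p = 0.122, and BATKO 0.40, adjusted p = 0.0785).

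The other members did not pass in either genotype. Mfn1 had log2 fold changes of 0.25 (adjusted p = 0.096) in CTRL and -0.12 (adjusted p = 0.379) in BATKO mice, and Polg had 0.29 (adjusted p = 0.0853) and -0.28 (adjusted p = 0.0787). Without BATKO mouse 7 of the cold group, Polg passed in BATKO mice at -0.35 (adjusted p = 0.0484). Oma1 had 0.43 (adjusted p = 0.0858) and 0.14, Nrf1 0.23 and 0.03, and Dnm1l 0.09 and 0.30, with groups that overlapped in BATKO mice for each of the 3. In CTRL mice the cold and warm groups did not overlap for Mfn1, Nrf1 and Polg. How many of all genes showed no overlap between groups of this size was not counted.

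**Figure D3:**
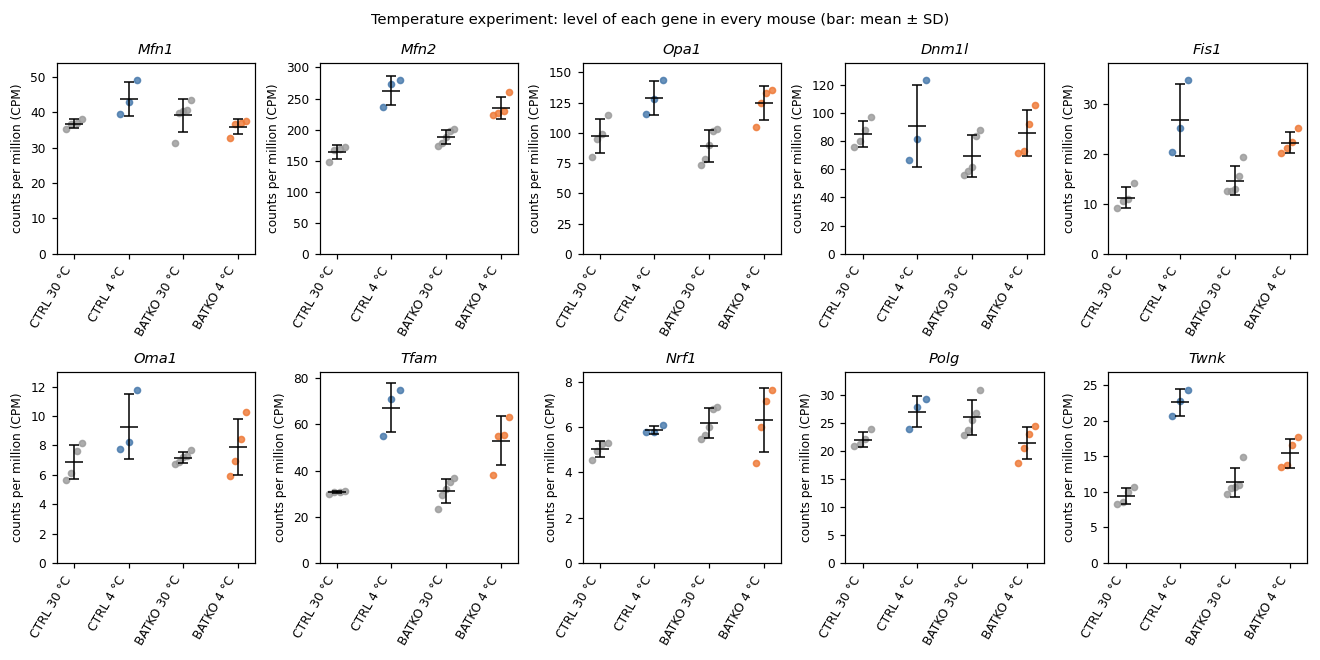
Level of each of the 10 members (CPM, y axes from 0, own scale per gene) in every mouse of the temperature experiment, by group; points are mice and bars are means ± SD. The 3 cold CTRL mice have 20.6 to 24.4 CPM of Twnk, above all 4 cold BATKO mice at 13.6 to 17.7 CPM.

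Marker sums differed between these groups too. Brown adipocyte markers summed to 12075 to 16571 CPM in cold and 788 to 2111 CPM in warm CTRL mice, and to 7868 to 16260 CPM in cold and 1360 to 2368 CPM in warm BATKO mice. Skeletal muscle markers summed to 142 to 560 CPM in cold CTRL mice and up to 6578 CPM in warm ones, and to at most 1997 CPM in cold BATKO mice and 11497 CPM in a warm one. Erythroid markers summed to 554 to 1224 CPM in cold and 208 to 430 CPM in warm CTRL mice, and to 696 to 983 CPM and 188 to 666 CPM in BATKO mice. In CTRL mice the sums were lower in the cold for fibroblasts and preadipocytes (176 to 211 against 383 to 551 CPM), macrophages (38.1 to 42.4 against 56.7 to 129.9 CPM) and lymphocytes (0.528 to 1.21 against 2.36 to 5.27 CPM), and higher for nerve and Schwann cells (91.8 to 133 against 52.6 to 83.1 CPM). In BATKO mice they were lower in the cold for endothelial cells (363 to 534 against 609 to 1040 CPM) and higher for general adipocyte markers (10656 to 13110 against 8427 to 10497 CPM). Apart from those of the muscle markers, none of these ranges overlapped between cold and warm mice of a genotype. The lymphocyte sum, over 7 markers, was at most 5.289 CPM in any library of the 3 experiments, so that it rests on few counts. Each sum can follow the level of its own genes per cell as well as the share of cells. The part of these cells in the member values was not tested beyond leaving out the mice named above.

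The genotypes were next compared at each temperature. In the cold no member passed, beside 2.16% of all genes, and Twnk came closest with a log2 difference of -0.55 between BATKO and CTRL (SE 0.159, adjusted p = 0.0809). Every cold BATKO mouse had less Twnk than every cold CTRL mouse, and Mrpl43 had -0.38 (adjusted p = 0.201). Polg had -0.33 (adjusted p = 0.228) and Mfn1 -0.28 (adjusted p = 0.245), the latter also without overlap. The sums of macrophage, lymphocyte, fibroblast and preadipocyte, and general adipocyte markers were all higher in cold BATKO than in cold CTRL mice and that of nerve and Schwann cell markers lower, without overlap, and their part was not tested. At 30 °C no member passed, beside 0.00754% of all genes (1 gene, with 1209 at an unadjusted p under 0.05 and 8 called by DESeq2), and the member with the largest difference was Fis1 at 0.39 (adjusted p = 0.543).

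The genotype difference of the cold response, the BATKO change minus the CTRL change, passed for no member, beside 1.12% of all genes. It was -0.82 for Twnk (SE 0.214, 95% interval -1.27 to -0.37, adjusted p = 0.071), -0.65 for Fis1 (SE 0.264, adjusted p = 0.191), -0.57 for Polg (SE 0.182, adjusted p = 0.107), -0.37 for Mfn1 (SE 0.161, adjusted p = 0.222) and -0.35 for Mfn2 (SE 0.153, adjusted p = 0.223). These 5 had an unadjusted p under 0.05. Mrpl43 had -0.60 (adjusted p = 0.117). The Twnk difference passed under DESeq2 (adjusted p = 0.0222) and without CTRL mouse 5 of the cold group (-0.88, adjusted p = 0.032). The Twnk difference between the genotypes in the cold also passed under DESeq2 (adjusted p = 0.0281) and without that mouse (-0.64, adjusted p = 0.0487). Tfam had -0.37 (adjusted p = 0.405) and Opa1 0.07 (adjusted p = 0.889).

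HFD changed no member past the threshold in either genotype. In CTRL mice 3.94% of 12932 genes were called and in BATKO mice 0.0696%, and in each genotype the member with an unadjusted p under 0.05 was Twnk. It stood at 10.8, 15.2, 16.4 and 16.0 CPM in CTRL mice on HFD and at 10.2, 11.4, 13.4 and 9.56 CPM on chow, with overlap and a log2 fold change of 0.39 (SE 0.162, adjusted p = 0.184). In these CTRL mice the marker sums were higher on HFD than on chow for macrophages (81.3 to 244 against 59.2 to 72.2 CPM) and for fibroblasts and preadipocytes (646 to 1070 against 370 to 638 CPM) and lower for lymphocytes (0.629 to 1.30 against 1.77 to 3.35 CPM), without overlap, and their part was not tested. In BATKO mice Twnk stood at 11.1, 14.7 and 15.4 CPM on HFD and at 7.54 and 7.54 CPM in the 2 mice on chow, without overlap, and the change was 0.87 (SE 0.221, adjusted p = 0.119). This value passed under DESeq2 (adjusted p = 0.0311) and with no filter on low counts (adjusted p = 0.0327). Mrpl43 had 0.27 in CTRL (adjusted p = 0.231) and 0.35 in BATKO mice (adjusted p = 0.336). In these BATKO mice the marker sums were higher on HFD than on chow for brown adipocytes (3935 to 5264 against 2088 to 3045 CPM), erythroid cells (537 to 1195 against 423 to 451 CPM) and nerve and Schwann cells (52.3 to 86.6 against 36.3 to 41.6 CPM). They were lower for macrophages (57.5 to 133 against 137 to 171 CPM) and lymphocytes (1.84 to 1.91 against 2.46 to 2.73 CPM). None of these ranges overlapped, and their part was not tested.

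The remaining members did not reach an unadjusted p under 0.05 for the change from chow to HFD in either genotype. Per kilobase of exon, Fis1 averaged 6.277 CPM on chow and 7.644 on HFD in CTRL mice, and 6.19 and 7.575 in BATKO mice. Tfam averaged 10.85 CPM per kb on chow and 9.506 on HFD in CTRL mice, and 10.27 and 8.726 in BATKO mice. Mfn1 ranged from 38.9 to 52.7 CPM in all chow mice and from 43.0 to 61.7 CPM in all HFD mice, where CTRL mouse 9 gave the highest value. Dnm1l had log2 fold changes of -0.22 (adjusted p = 0.25) in CTRL and -0.29 (adjusted p = 0.336) in BATKO mice. The members' median was -0.08 in CTRL mice, beside 0.01 for all genes, and 0.06 in BATKO mice, beside 0.03.

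BATKO and CTRL mice did not differ past the threshold in any member on HFD, on chow or in their response to HFD, and in each of these comparisons 0% of all genes were called by edgeR's quasi-likelihood test. An unadjusted p under 0.05 was found for 691, 1024 and 740 genes in that order, and DESeq2 called 12, 31 and 0. Twnk on chow had the largest member difference, -0.56 (SE 0.212, adjusted p = 0.517), with both BATKO mice below all CTRL mice. On chow the marker sums of BATKO and CTRL mice also stood apart for macrophages (137 to 171 against 59.2 to 72.2 CPM), fibroblasts and preadipocytes (813 to 836 against 370 to 638 CPM) and nerve and Schwann cells (36.3 to 41.6 against 58.3 to 86.1 CPM), and their part was not tested. On HFD the Twnk difference was -0.08 with a 95% interval from -0.45 to 0.29. Mrpl43 had -0.10 on chow and -0.02 on HFD.

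**Figure D4:**
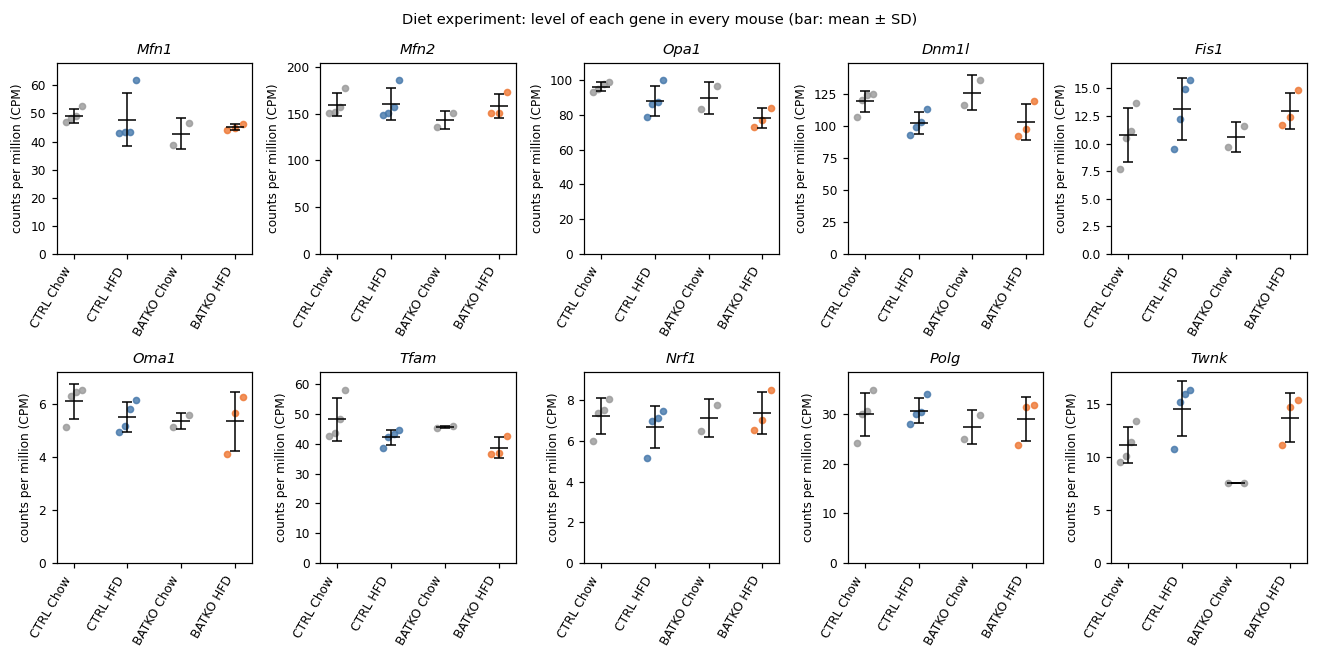
Level of each of the 10 members (CPM, y axes from 0, own scale per gene) in every mouse of the diet experiment, by group; points are mice and bars are means ± SD. The 2 BATKO mice on chow have 7.54 CPM of Twnk each, the lowest of the 13 mice.

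The members act with many partners, of which 101 were listed in 6 groups by function. Of the 94 tested in WT mice, 16 rose and 2 fell at 3 h, beside 5.1% and 4.09% of all genes. At 6 h 27 were higher and 5 lower, beside 12.1% and 10.9%, at 12 h 28 and 5, beside 13.6% and 12.1%, and at 24 h 30 and 8, beside 17.2% and 15.5%. In BATKO mice 0 of 95 passed 24 h after TH, where 0% of all genes did. The interaction term was higher for 2 and lower for 21, beside 5.12% and 7.15%. Cold raised 49 of 95 and lowered 12 in CTRL mice, beside 26.5% and 22.6%, and raised 44 and lowered 9 in BATKO mice, beside 21.4% and 18.9%. Without PTU mouse B3, the partners higher at 3 h went from 16 to 6, those lower at 24 h from 8 to 3, and those lower in the interaction term from 21 to 12. In the main edgeR fits no partner passed between genotypes at 30 °C, beside 0.00754% of all genes. None passed in a diet comparison either, beside at most 3.94% of all genes.

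Between genotypes in the cold, 4 partners were lower in BATKO mice, beside 2.16% of all genes, namely Phb, Letm1, Ppargc1a and Esrra. This count was 3 without the mice high in muscle markers, 0 with only the groups compared, 11 under DESeq2 and between 1 and 12 with 1 mouse left out. The genotype difference of the cold response was lower for 5, beside 1.12%, namely Endog, Phb, Letm1, Rhot2 and Spg7, an inner membrane protease gene. None of these 5 passed without the mice high in muscle markers, without cold CTRL mouse 1 or without warm CTRL mouse 21, whereas 13 partners were lower under DESeq2 and 16 without cold CTRL mouse 5.

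Several of the other calls given below did not hold when 1 mouse was left out. After TH in WT mice these were Polrmt, Tfb2m, Ppargc1a and Ppargc1b at 3 h, Sirt1 at 6 h, and Stx17, Yme1l1 and Polg2 at 24 h. In the interaction term they were Dnajc11, Endog, Polrmt, Pprc1 and Nrip1. In cold CTRL mice they were Stx17, Primpol, Prorp, Ssbp1 and Ppargc1b.

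**Figure D5:**
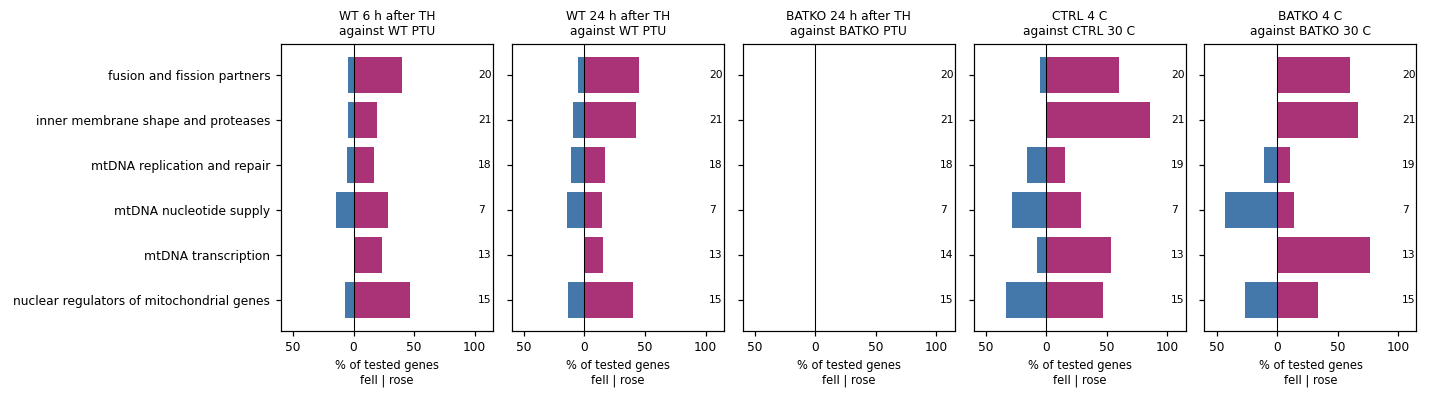
Percent of the tested genes of each of the 6 partner groups that rose (bars to the right) or fell (bars to the left), for TH at 6 and 24 h in WT mice, at 24 h in BATKO mice, and for cold in CTRL and BATKO mice; numbers at the right give the genes tested. Of 21 inner membrane genes, 18 rose in cold CTRL mice and none fell, beside 26.5% and 22.6% of all genes.

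Among partners in fusion and fission, 9 of 20 rose and 1 fell 24 h after TH in WT mice, beside 17.2% and 15.5% of all genes. Trak2, an adaptor that ties mitochondria to motor proteins, rose by 1.42 on the log2 scale at 24 h, and Pld6, an outer membrane phospholipase that promotes fusion, by 2.10 at 6 h. Spire1, an actin nucleator, fell by 0.84 at 6 h and Stx17, a syntaxin, fell by 0.34 at 24 h. The interaction term was -1.30 for Trak2 and -0.84 for Mtfp1, an inner membrane protein that promotes fission. Cold raised 12 of 20 and lowered 1 in CTRL mice, beside 26.5% and 22.6%, with a median of 0.77. In BATKO mice it raised 12 and lowered none, beside 21.4% and 18.9%. The gene lowered in CTRL mice was Stx17, which fell by 0.41 (adjusted p = 0.0201). Mtfp1 rose by 1.70 and Rhot2, a mitochondrial transport GTPase, by 1.64 in CTRL mice. The genotype difference of the cold response was -0.92 for Rhot2 (adjusted p = 0.0416), and -0.81 without the mice high in muscle markers (adjusted p = 0.255). Mff, the outer membrane receptor for the Dnm1l product, rose by 0.35 at 12 h after TH (adjusted p = 0.00382), by 0.87 in cold CTRL mice and by 0.82 in cold BATKO mice.

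Inner membrane organisers and proteases gave 9 of 21 higher and 2 lower at 24 h after TH, beside 17.2% and 15.5% of all genes. Letm1, a cation exchanger gene, rose by 1.19 at 24 h, and Dnajc11, a cristae-linked cochaperone gene, by 0.82 at 6 h. Clpx, a matrix chaperone gene, fell by 0.87 at 12 h and Yme1l1, which encodes the other protease that cuts OPA1, fell by 0.38 at 24 h (adjusted p = 0.0171). Cold raised 18 of 21 and lowered none in CTRL mice, beside 26.5% and 22.6% of all genes, with a median of 1.01. In BATKO mice it raised 14 of 21 and lowered none, beside 21.4% and 18.9%. Letm1 rose by 3.01 and Dnajc11 by 2.33 in CTRL mice, while Yme1l1 had -0.04 (adjusted p = 0.831). The interaction term after TH was lower for 5 of the 21 and higher for none, beside 7.15% and 5.12% of all genes. It was -1.13 for Letm1 (adjusted p = 0.00717) and -0.61 for Dnajc11 (adjusted p = 0.0359). The genotype difference of the cold response was -1.03 for Letm1 (adjusted p = 0.0373) and -1.05 for the prohibitin gene Phb (adjusted p = 0.02), and without the mice high in muscle markers the adjusted p was 0.187 and 0.183. In the cold, BATKO mice had less Letm1 (-0.66, adjusted p = 0.0484) and Phb (-0.76, adjusted p = 0.0123), of which Letm1 did not pass without those mice (adjusted p = 0.075).

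Genes that copy and repair mtDNA were called at shares close to or below those of all genes. At 24 h after TH 3 of 18 rose and 2 fell, beside 17.2% and 15.5% of all genes, and in cold CTRL mice 3 of 19 rose and 3 fell, beside 26.5% and 22.6%, with a list median of -0.03. Endog, a mitochondrial nuclease gene, rose by 0.92 at 24 h after TH and by 2.01 in cold CTRL mice, and Atad3a, a nucleoid-linked ATPase gene, rose by 0.74 at 6 h and by 1.23 in the cold. Polg2, the accessory subunit that grips the Polg product, fell by 0.63 at 24 h after TH (adjusted p = 0.0363), when Polg itself had 0.30. In cold CTRL mice Polg2 had -0.32 (adjusted p = 0.419), and Ssbp1, the single-strand binding protein that works with the helicase, rose by 0.94 (adjusted p = 0.00675). Mpv17, an inner membrane gene needed for mtDNA upkeep, fell by 0.37 at 24 h after TH, and the DNA repair genes Tdp1 and Primpol fell by 0.83 and 0.81 in cold CTRL mice, the latter with an adjusted p of 0.0854 without the mice high in muscle markers. The interaction term after TH was -0.65 for Endog, and its genotype difference in the cold response was -1.32 (adjusted p = 0.0226), with an adjusted p of 0.121 without those mice.

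The nucleotide supply list had 7 tested genes. Slc25a33, a pyrimidine nucleotide carrier gene, rose by 2.34 at 12 h after TH and Tk2, which encodes the mitochondrial thymidine kinase, fell by 0.92, and their interaction terms at 24 h were -1.27 and 0.80. In cold CTRL mice Slc25a33 rose by 1.10, and Samhd1 and Rrm2b, which break down and make deoxynucleotides, fell by 1.45 and 1.04. Of 13 genes for mtDNA transcription, 2 rose and none fell at 3 h after TH, beside 5.1% and 4.09% of all genes. At 6 h 3 rose and none fell, beside 12.1% and 10.9%, and at 12 h 4 rose and 1 fell, beside 13.6% and 12.1%. At 24 h 2 rose and none fell, beside 17.2% and 15.5%. In cold CTRL mice 7 rose and 1 fell, beside 26.5% and 22.6%, with a median of 0.80. In cold BATKO mice 10 rose and none fell, beside 21.4% and 18.9%. Polrmt, the mitochondrial RNA polymerase that TFAM recruits to promoters, rose at 3 h after TH by 0.63 (adjusted p = 0.021) and in cold CTRL mice by 1.54. Tfb2m, its cofactor, rose by 0.45 at 3 h (adjusted p = 0.0478, and 0.057 without the WT mouse high in muscle markers) and by 0.68 at 12 h, and had 0.71 in cold CTRL mice (adjusted p = 0.0619). Lrpprc, which stabilises mitochondrial mRNA, rose by 1.07 at 12 h, with an interaction term of -0.72 at 24 h, and that of Polrmt was -0.77. Mterf2, a termination factor family gene, rose by 0.92 at 12 h and by 1.88 in cold BATKO mice, and Prorp, a tRNA processing nuclease gene, fell by 0.43 at 12 h and by 0.60 in cold CTRL mice (adjusted p = 0.0477, and 0.096 without the mice high in muscle markers).

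Nuclear regulators that act with or beside Nrf1 gave 6 of 15 higher and 2 lower at 24 h after TH, beside 17.2% and 15.5% of all genes, and 7 higher and 5 lower in cold CTRL mice, beside 26.5% and 22.6%. Ppargc1a, the coactivator of mitochondrial biogenesis, rose by 1.42 at 3 h (adjusted p = 0.027) and by 1.86 at 6 h, and had 0.57 at 12 h (adjusted p = 0.315). Ppargc1a is also 1 of the brown adipocyte markers summed above. Esrrg and Esrra, estrogen-related receptors, rose by 1.43 and 0.92 at 6 h, and Ppargc1b, a second coactivator of that family, rose by 0.72 at 3 h (adjusted p = 0.0283). Nrip1, a corepressor gene, fell by 1.27 at 24 h and Sirt1, a deacetylase gene, fell by 0.41 at 6 h (adjusted p = 0.0299, and 0.0703 without the mouse high in muscle markers). The interaction term was -1.38 for Esrrg, -1.09 for the coactivator gene Pprc1 and 1.09 for Nrip1. In cold CTRL mice Ppargc1a rose by 2.57 and Esrra by 1.96, Myc fell by 3.53 and Sirt1 by 1.04. Ppargc1b rose by 0.58 (adjusted p = 0.0194). In the cold BATKO mice had less Ppargc1a (-1.65, adjusted p = 0.022) and Esrra (-0.80, adjusted p = 0.0492, and 0.071 without the mice high in muscle markers) than CTRL mice.

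Under PTU, 32 of the 95 partners were higher and 37 lower in BATKO than in WT libraries, shares near the 36.4% and 33.9% of all genes, so that the following values describe single genes of libraries that stood apart. Among the largest were Apoo, a cristae-organising gene (3.45), Tfb2m (2.39), Atad3a (1.69), Lonp1, a matrix protease gene (1.54), Inf2, an actin nucleator of fission (1.53), and Polrmt (1.45) on the higher side. On the lower side were Micos10, a cristae-organising gene (-2.18), Nrip1 (-2.06), Tfb1m, a mitochondrial rRNA methyltransferase gene (-1.88), Mff (-1.46), the cristae gene Apool (-1.30) and Esrrg (-1.28), all log2 differences.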

How the data were processed

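Gene counts were deposited by the authors as 3 tables of raw counts, 1 per experiment, for 59 mice, with no sample column left unmatched. According to the labels and the submitters' processing notes, total RNA was made into libraries with the Lexogen SENSE kit and sequenced on a NextSeq 500, and Bowtie2 (version 2.3.2.2), DESeq2 and the build mm10 were used. The methods of the study name htseqcount for counting, in the section on data taken from GEO, and the strand setting is not given in the sources used here. The members and the gene lists were chosen with earlier results of these data known.

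The counts were tested with edgeR (version 4.0.16, R 4.3.3) by the quasi-likelihood test after TMM scaling, on genes with a mean normalised count above 10, with Benjamini-Hochberg adjustment over all tested genes and a threshold of 0.05. WT time points were fitted on the 20 WT mice, the BATKO and interaction terms on all 30 mice of that table, and the other comparisons on all mice of their table. CPM of genes were computed on TMM-scaled totals and marker sums on raw totals. The tables were normalised and tested separately. No sample was dropped. The scripts were tested on simulated counts. Alternatives were DESeq2 (version 1.42.0), its type of size factors within edgeR, no filter, a mean count above 50 and the genes of the mitochondrial genome left out. Further ones were only the groups compared, all mice of the table and each mouse left out. Chosen after seeing the data were mice above 2000 CPM of skeletal muscle markers left out and all of these alternatives for the partners.

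Beside all members and the partners Ppargc1a, Ppargc1b, Esrra, Polg2, Polrmt, Tfb2m, Ssbp1, Yme1l1 and Mff, the genes named were, per list and kind of comparison, at most the 2 with the largest called change in each direction and a mean count above 50. The kinds were TH in WT, TH in BATKO, its genotype difference, genotype under PTU, cold, genotype at a temperature, its genotype difference, and diet. Of those under PTU the 6 with the largest differences in each direction were printed. One gene that this rule names is not reported here. Gene positions and exon lengths came from GENCODE vM21 (GRCm38) and promoters from RefSeq. No 2 libraries of a group agreed within sampling noise, with a chi-square per degree of freedom of at least 6.81 over 91 pairs.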

Additional observations from a re-analysis of the deposited data

Results flagged for a closer look

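In 120 sets, each of 1 member in 1 group of 4 or 5 mice, 1 mouse was searched for whose level stood far from the others. The measure was the share of the set's whole range taken by the gap to its neighbour. This was found in 8 sets, where chance flags about 1 in 20 sets, or 6. Opa1 and Tfam were both high in BATKO mouse 4 under PTU, at 104 CPM against 76.2 to 83.9 (share 0.726) and at 32.2 CPM against 24.9 to 25.9 (share 0.854). Polg was high in WT mouse B4 under PTU, at 11.9 CPM against 8.76 to 9.12 (share 0.886), and in WT mouse B8 at 3 h after TH, at 14.6 CPM against 12.0 to 12.4 (share 0.858). Fis1 was high in WT mouse B2 under PTU, at 14.0 CPM against 12.1 to 12.2 (share 0.928). Mfn2 was high in cold BATKO mouse 11, at 261 CPM against 224 to 230 (share 0.851), and Twnk in BATKO mouse 14 at 30 °C, at 14.8 CPM against 9.66 to 10.9 (share 0.760). Mfn1 was high in CTRL mouse 9 on HFD, at 61.7 CPM against 43.0 to 43.3 (share 0.984). The 24 h response to TH differed between BATKO and WT mice by the interaction term for Mfn1 (log2 difference -0.47) and Twnk (log2 difference -1.19).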

How the results depend on the processing

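Of 2781 alternative values of 170 member changes, 2608 kept their direction and their side of the threshold, 48 lost the call of 1 of the 40 called changes, 19 gained a call, 106 changed sign in values that passed in neither fit, and 0 reversed a called change. The number of members called in WT mice moved from 2 to between 0 and 3 at 3 h and from 5 to between 3 and 6 at 24 h when 1 mouse was left out, and to 2 at 24 h with no filter on low counts. The interaction term after TH went from 2 to 1 with no filter. BATKO cold calls went from 5 to between 3 and 5 with 1 mouse left out, and to 2 without the mice high in muscle markers, an alternative chosen after seeing the data. BATKO against CTRL in the cold and the genotype difference of the cold response each went from 0 to 1 under DESeq2 and to at most 1 with 1 mouse left out, and BATKO HFD against chow from 0 to 1 under DESeq2 and with no filter. The causes were not tested.

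Counts over all genes moved by more than 1.5 times in several comparisons. BATKO against CTRL in the cold had 286 calls, 639 under DESeq2, 61 with only the groups compared and 154 without the muscle-marker mice. The genotype difference of the cold response had 149, with 686 under DESeq2 and 4 without those mice, and BATKO against CTRL at 30 °C had 1, with 8 under DESeq2 and 0 without those mice. CTRL HFD had 509, with 1280 unfiltered, 872 under DESeq2 and 321 in only the groups compared, and BATKO HFD had 9, with 336, 266 and 66 in that order and 33 without the muscle-marker mice. BATKO against CTRL on HFD had 0, with 59 unfiltered and 12 under DESeq2, on chow 0, with 290, 31 and 114 in only the groups compared, and the genotype difference of the diet response 0, with 216 unfiltered. With 1 mouse left out, the calls after TH in WT mice at 3 h went from 1195 to 684 without PTU mouse B3, and those in BATKO mice from 0 to 1 without mouse 9 after TH. BATKO against CTRL in the cold ranged from 53 without cold CTRL mouse 2 to 565 without cold CTRL mouse 5, and fell to between 72 and 146 without cold BATKO mouse 7, 8 or 12 or cold CTRL mouse 1. The genotype difference of the cold response ranged from 5 without cold CTRL mouse 1 to 907 without cold CTRL mouse 5, was 227 without warm BATKO mouse 13, and was at most 61 without any 1 of cold BATKO mice 7, 8 and 12, warm BATKO mice 14, 16 and 17, cold CTRL mouse 2 and warm CTRL mice 19, 20 and 21. CTRL HFD fell to between 166 and 255 without CTRL mouse 2 or 4 on chow or 10 or 11 on HFD. BATKO HFD fell to at most 1 without BATKO mouse 5 or 6 on chow or 14 or 15 on HFD, and BATKO against CTRL on HFD rose to 1 without CTRL mouse 9 and to 10 without CTRL mouse 10. No partner passed in a diet comparison as reported, but in CTRL mice on HFD 3 partners were higher and 1 lower with no filter, 1 was higher under DESeq2 and without the muscle-marker mice, and up to 2 were higher with 1 mouse left out. No paired analysis was possible because the groups compared share no mouse label. Nrf1, Oma1 and Twnk had the fewest counts, which limits the precision of their values.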
